A study of Mus musculus with 6 samples.

Results

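The genes described here are the 4 Id genes (Id1, Id2, Id3 and Id4) and the 3 E protein genes of the mouse (Tcf3, Tcf4 and Tcf12), 7 of the 18193 genes measured. They were read from the 22 probe sets that the platform annotation pairs with 1 of these genes and no other, 8 for Id genes and 14 for E protein genes. The probe set that was brightest on average stood for its gene, and the remaining ones were read beside it. RNA came from cells of the limb skeleton, sorted by flow cytometry after collagenase digestion, of mice aged 3 days. The Itgav-low Tie2-positive population (3 arrays, called Tie2-positive below) lacked CD45, a leukocyte antigen, and Ter119, an erythroid antigen, was low for integrin alpha V and carried Tie2, the angiopoietin receptor of endothelial cells. The Itgav-negative Tie2-negative population (3 arrays, called Tie2-negative) lacked all 4 antigens. All 6 samples were fore and hind limbs pooled over a litter and had no treatment. The labels give a wild-type genotype for all samples and elsewhere mention GFP-labelled mice. Nothing in the labels says whether the 3 samples of a population were separate litters, so the spread behind each p-value may be technical.

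E proteins are basic helix-loop-helix transcription factors that bind E-box DNA as dimers, with themselves or with tissue-restricted partners such as Tal1. Id proteins have the helix-loop-helix but lack the basic DNA-binding region, so that an E protein held by an Id protein cannot bind DNA. Id1 and Id3 are known from endothelial cells and as direct targets of BMP signalling, Id2 from innate lymphoid and myeloid cells among others, and Tcf3 (which encodes E12 and E47) as a factor that early B-cell development needs.

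Values are log2 array values after quantile normalization, and a change is Tie2-positive minus Tie2-negative. A gene was called at a limma adjusted p under 0.05 over all 18193 genes. Tek, which encodes the sorted antigen Tie2, had a change of 6.07 ± 0.53 (SE). The populations also differed in other lineages. Of 13 endothelial markers 10 rose, and their median was between 8.90 and 11.63 in the Tie2-positive and between 5.58 and 5.77 in the Tie2-negative arrays. Of 11 B-cell markers 8 fell (medians of 5.40 to 6.09 in Tie2-positive and 7.85 to 10.15 in Tie2-negative arrays), as did 6 of 10 erythroid markers (5.92 to 8.24 in Tie2-positive and 10.32 to 12.24 in Tie2-negative arrays). Neutrophil and monocyte markers separated the Tie2-positive arrays, with medians of 6.01, 10.81 and 13.19 in replicates 1, 2 and 3, against 6.14 to 8.33 in the Tie2-negative arrays, and limma called 0 of 11 (0 at an unadjusted p under 0.05), but 9 without Tie2-positive replicate 1. Of 7 megakaryocyte markers 2 rose, with medians of 6.83 to 10.18 in the Tie2-positive and of 5.62 to 6.12 in the Tie2-negative arrays. The risers were Pf4, with 9.11, 12.21 and 11.89 in Tie2-positive replicates 1, 2 and 3, and Vwf, with 11.52, 10.18 and 9.17. Vwf ran in the order of the endothelial median, and Pf4 did not. Mesenchymal and skeletal markers had medians of 5.69 to 6.87 in the Tie2-positive and of 5.59 to 5.68 in the Tie2-negative arrays, against a median of 5.67 over all probe sets. The highest of these was Tie2-positive replicate 1, and 1 of the 14 markers, Cxcl12, rose. The endothelial count was 6 without Tie2-positive replicate 2 and 4 without Tie2-negative replicate 3, the B-cell count 5 without Tie2-positive replicate 2, and the erythroid count 3 without Tie2-negative replicate 3. The megakaryocyte count was 5 without Tie2-positive replicate 1 and 1 without Tie2-negative replicate 3, and all these counts were 0 without Tie2-negative replicate 1 or 2.

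Id1, Id2 and Id3 had higher values in all 3 Tie2-positive than in any Tie2-negative array, by 2.92 to 4.52 on average. Among the E proteins, Tcf4 was higher in all 3 (1.86) and Tcf3 lower (-0.67). Only Id2 passed the test: 1 of 7 members was called, against 7.39% of all genes. The populations did not overlap in 5 members, 4 of them higher and 1 lower, as in 39.1% of all genes (15.2% higher, 23.9% lower). At an unadjusted p under 0.05 limma gave 5 of the 7, against 28.6% of all genes. In these bulk samples more cells that use a gene and more RNA per cell cannot be told apart.

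**Figure D1:**
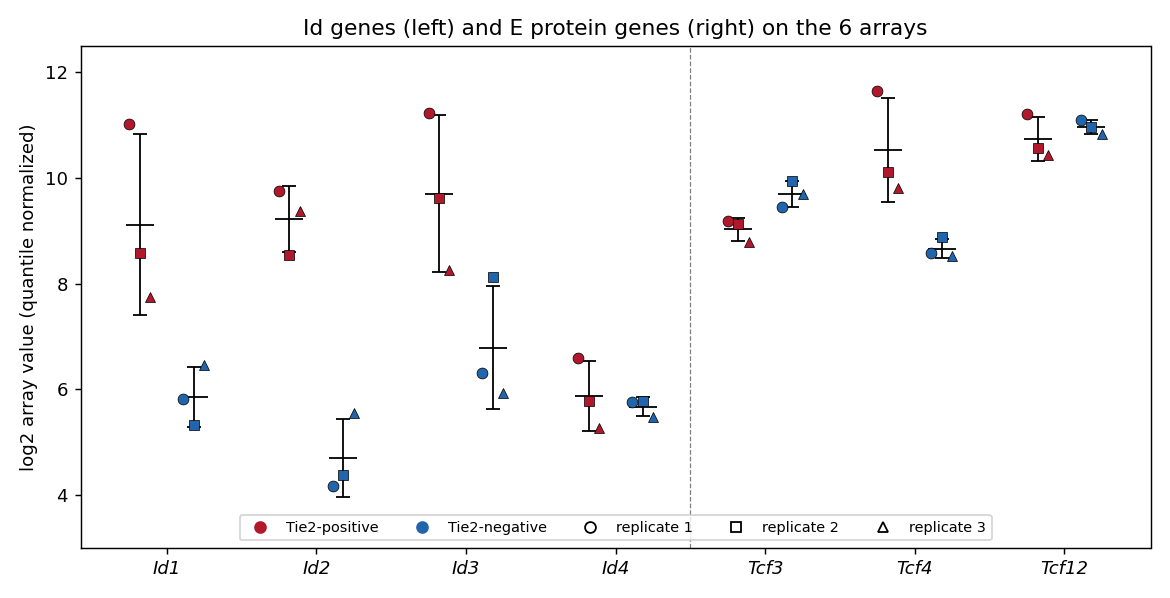
Log2 array values (quantile normalized) of the probe set used for each gene, with Tie2-positive (red) left of Tie2-negative (blue); symbols are replicates 1 to 3, and the horizontal line and bar give mean and SD (n = 3). Id1, Id2, Id3 and Tcf4 lie higher and Tcf3 lower in all 3 Tie2-positive arrays, while Id4 and Tcf12 overlap.

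Id2, an inhibitor that binds E proteins and is also known from the innate lymphoid lineage, was the gene called. Its values were 9.75, 8.55 and 9.38 in Tie2-positive replicates 1, 2 and 3, against 4.17, 4.38 and 5.55 in Tie2-negative replicates 1, 2 and 3. Tie2-negative replicates 1 and 2 lay under the 25th percentile of all probe sets (4.55), and the deposited values carry no detection calls. The lowest Tie2-positive array lay 3.00 above the highest Tie2-negative array. Id2 rose by 4.52 ± 0.46 (SE, n = 3 per population), 23.0-fold, with a limma adjusted p of 0.0104. Its other probe sets were also higher without overlap, by 1.78 ± 0.35 (1422537_a_at) and 0.67 ± 0.15 (1453596_at, SE), and passed with all 45037 probe sets tested (limma adjusted p of 0.0367 and 0.0483), where 4.99% of probe sets passed. The Tie2-negative values of 1453596_at also lay under that percentile. The change of Id2 was largest of the 7 genes in the probe set used, but over the mean of its probe sets it was 2.32, below Id1 and Id3. The call did not hold without Tie2-negative replicate 1 or 2 (limma adjusted p of 0.0633 and 0.0626), fits in which limma called 0 genes of the whole table, with 4012 and 3980 at an unadjusted p under 0.05.

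Id1, an Id gene of growing endothelium, had values of 11.03, 8.58 and 7.74 in Tie2-positive replicates 1, 2 and 3, against 5.81, 5.31 and 6.45 in the Tie2-negative replicates. All Tie2-positive arrays were higher, but they spanned 3.29 among themselves. The change of 3.26 ± 0.82 (SE, n = 3 per population; 9.56-fold) did not pass (limma adjusted p = 0.0604). Id1 passed without Tie2-positive replicate 1 (a change of 2.30, limma adjusted p = 0.0119) and without Tie2-positive replicate 3 (3.95, 0.0349). It has a single probe set on the array.

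Id3, which acts beside Id1 in vessels of the embryo, had values of 11.23, 9.62 and 8.26 in Tie2-positive replicates 1, 2 and 3, against 6.30, 8.12 and 5.94 in the Tie2-negative replicates. The lowest Tie2-positive and the highest Tie2-negative array were close, and the populations did not overlap. The change of 2.92 ± 0.86 (SE, n = 3 per population; 7.55-fold) did not pass (limma adjusted p = 0.0861). Without Tie2-positive replicate 3 it was 3.64 and lay at the threshold (limma adjusted p = 0.04995). Id3 also has a single probe set.

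Id4, an Id protein known mainly from neural and bone-forming cells, gave an answer that depended on the probe set. The one used had values of 6.58, 5.77 and 5.27 in Tie2-positive replicates 1, 2 and 3, against 5.77, 5.78 and 5.47 in the Tie2-negative replicates, and its change was 0.20 ± 0.33 (SE; limma adjusted p = 0.703). Both populations sat near the median of all probe sets (5.67). The dimmer probe set 1450928_at had values of 5.40, 5.25 and 4.75 in the Tie2-positive against 3.59, 3.30 and 3.39 in the Tie2-negative replicates. Its Tie2-negative values lay under the 25th percentile of all probe sets (4.55), and the deposited values carry no detection calls. With all probe sets tested it rose by 1.71 ± 0.18 (SE; limma adjusted p = 0.0103), and 1423259_at by 1.60 ± 0.34 (SE; limma adjusted p = 0.0458). The Tie2-negative values of 1423259_at and its Tie2-positive replicate 3 (4.43) also lay under that percentile. Over the mean of its 3 probe sets Id4 passed (1.17, limma adjusted p = 0.0477). Without Tie2-positive replicate 1 the change of the probe set used turned to -0.15.

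Tcf4, which encodes E2-2, an E protein known from plasmacytoid dendritic cells and also made by endothelial cells, was the E protein with the largest change. Its values were 11.66, 10.11 and 9.81 in Tie2-positive replicates 1, 2 and 3, against 8.59, 8.88 and 8.53 in the Tie2-negative replicates. The Tie2-positive arrays spanned 1.84, with replicate 1 on top, and the Tie2-negative arrays 0.35. The change of 1.86 ± 0.48 (SE, n = 3 per population; 3.64-fold) did not pass (limma adjusted p = 0.0640), but did without Tie2-positive replicate 1 (1.30, limma adjusted p = 0.0117). Of its 6 probe sets, 5 were higher without overlap, by 1.86 to 2.36, and 1 (1416725_at) had a change of -0.01 ± 0.18 (SE). Probe sets of a gene read the same RNA samples, and the populations did not overlap in 39.1% of all genes. With all probe sets tested, 1 of the 6 for Tcf4 rose (1416723_at, limma adjusted p = 0.0454). Markers of T, NK and plasmacytoid dendritic cells had medians of 5.41 to 5.91 in the Tie2-positive and of 5.42 to 5.80 in the Tie2-negative arrays, and limma called 0 of 10 (4 at an unadjusted p under 0.05), but 2 rose without Tie2-positive replicate 1 and 1 without Tie2-positive replicate 3. These markers differed in direction, with 1 higher and 3 lower without overlap. Bst2 changed by 1.77 ± 0.56, Siglech by 0.11 ± 0.24 and Ccr9 by -0.56 ± 0.16 (SE).

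Tcf3 had values of 9.18, 9.13 and 8.78 in Tie2-positive replicates 1, 2 and 3, against 9.45, 9.94 and 9.71 in the Tie2-negative replicates. Every Tie2-positive array was lower, by a small margin. The change of -0.67 ± 0.23 (SE, n = 3 per population; 1.59-fold lower) did not pass (limma adjusted p = 0.122). Its other probe sets were also lower without overlap, at -0.90 ± 0.25 and -0.46 ± 0.17 (SE), and limma passed 0 of the 3 with all probe sets tested (3 at an unadjusted p under 0.05). The B-cell and erythroid markers fell in the same arrays, with the medians given above. Their part in the value of Tcf3 was not tested.

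Tcf12, which encodes the E protein HEB, had values of 11.22, 10.57 and 10.44 in Tie2-positive replicates 1, 2 and 3, against 11.09, 10.97 and 10.83 in the Tie2-negative replicates. The populations overlapped, and the change was -0.22 ± 0.25 (SE; limma adjusted p = 0.575). Of its 5 probe sets, 4 overlapped and 1 (1421908_a_at) was lower without overlap (-0.61 ± 0.24, SE). The changes ran from -0.61 to 0.46, and 0 passed in limma with all probe sets tested (1 at an unadjusted p under 0.05).

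**Figure D2:**
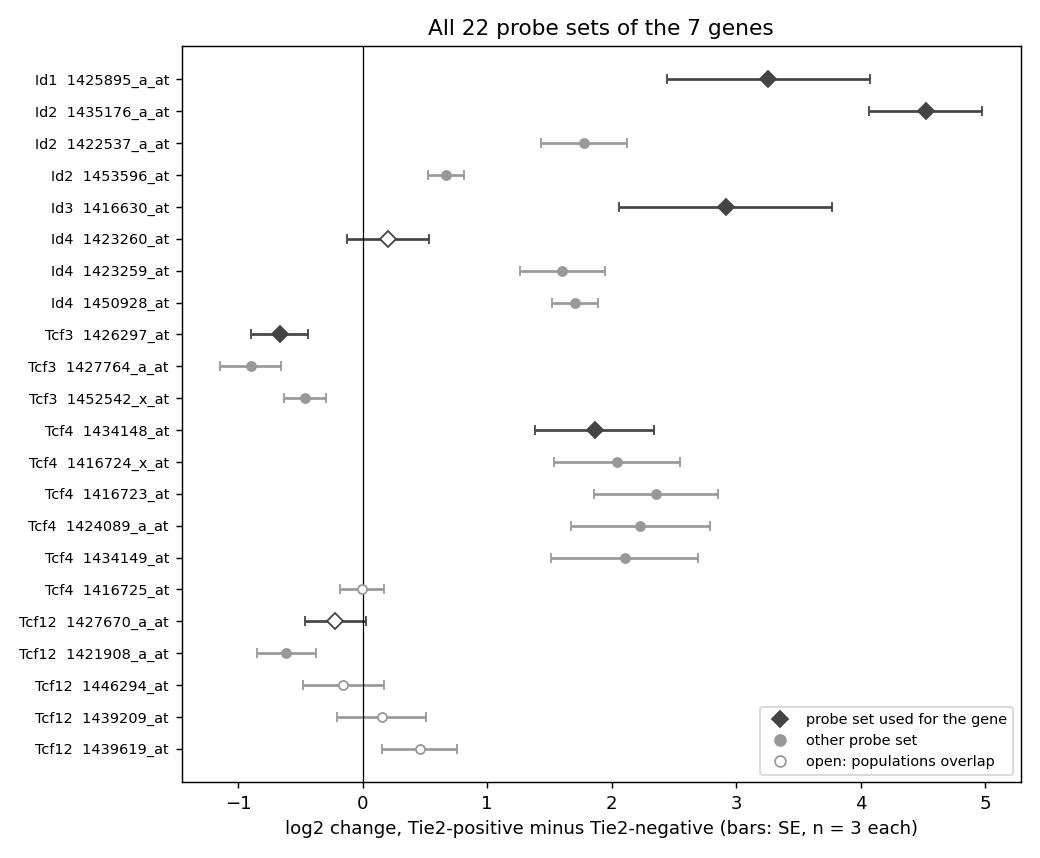
Log2 change (Tie2-positive minus Tie2-negative, with SE, n = 3 each) of all 22 probe sets, with diamonds for the probe set used and open symbols where the populations overlap. The probe sets of Id2 differ in size but not direction, those of Id4 and Tcf4 each include 1 near 0, and those of Tcf12 lie on both sides of 0.

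The proximal promoters are shown because Id2 and Id3 were higher together while Tcf3 was lower, and because the E-box is the site that E proteins bind. The RefSeq promoter table (GRCm38.p6) held 5 of the 7 genes, without Id1 and Tcf4, and 4 are printed. Each line gives the 250 bases before the annotated start in the direction of transcription, with the E-box CANNTG and GGCGCC, a GC-rich element bound by BMP-activated Smads in known Id gene promoters, in capitals. Both motifs read the same on either strand as searched, and none of the matches overlapped.
Id2 (chr12:25096093-25096342, minus strand): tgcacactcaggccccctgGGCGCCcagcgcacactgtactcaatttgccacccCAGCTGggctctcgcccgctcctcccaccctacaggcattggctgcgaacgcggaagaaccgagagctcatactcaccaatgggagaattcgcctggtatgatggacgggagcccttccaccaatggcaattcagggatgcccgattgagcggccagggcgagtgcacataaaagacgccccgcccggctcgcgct
Id3 (chr4:136143572-136143821, plus strand): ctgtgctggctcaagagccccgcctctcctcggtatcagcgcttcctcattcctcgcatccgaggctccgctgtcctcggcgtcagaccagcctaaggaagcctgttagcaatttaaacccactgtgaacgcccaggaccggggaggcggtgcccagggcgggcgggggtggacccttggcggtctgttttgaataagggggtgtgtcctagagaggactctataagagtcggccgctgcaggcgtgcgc
Id4 (chr13:48260866-48261115, plus strand): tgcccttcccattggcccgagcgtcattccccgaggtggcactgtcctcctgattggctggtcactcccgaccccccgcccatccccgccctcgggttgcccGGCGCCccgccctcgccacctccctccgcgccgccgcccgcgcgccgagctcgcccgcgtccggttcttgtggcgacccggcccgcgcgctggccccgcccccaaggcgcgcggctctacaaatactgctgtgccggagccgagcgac
Tcf3 (chr10:80433636-80433885, minus strand): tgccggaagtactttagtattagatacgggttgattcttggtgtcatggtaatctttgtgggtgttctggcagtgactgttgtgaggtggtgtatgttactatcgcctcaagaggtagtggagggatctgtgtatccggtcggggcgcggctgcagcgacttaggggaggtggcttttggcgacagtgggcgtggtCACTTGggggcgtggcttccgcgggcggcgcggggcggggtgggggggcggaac
An E-box stood once in the Id2 window (CAGCTG, 196 to 191 bases before the start) and once in that of Tcf3 (CACTTG, 54 to 49 bases before the start), and its letters were not found in the windows of Id3 and Id4. Tcf12 has 3 promoters in the table, not printed, of which 2 held an E-box and 0 held GGCGCC. Of 32851 promoters of the same length, 66.2% held an E-box. GGCGCC was found in the windows of Id2 (231 to 226 bases before the start) and Id4 (148 to 143), and in 9.59% of all promoters. The GC content was 62.8% for Id2, 62.8% for Id3, 75.6% for Id4 and 59.6% for Tcf3, and 76.8%, 78.0% and 34.8% for the promoters of Tcf12, against a median of 52.4% over all promoters.

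In the probe sets used, the Id genes apart from Id4 moved farther from their Tie2-negative mean than the E proteins in every Tie2-positive array. In Tie2-positive replicate 1, Id1, Id2 and Id3 stood 5.17, 5.05 and 4.44 above that mean, Tcf4 2.99 and Tcf12 0.25 above it, and Tcf3 at -0.52. In replicate 2 the differences were 2.72, 3.84 and 2.83 for Id1, Id2 and Id3, 1.44 for Tcf4, -0.39 for Tcf12 and -0.57 for Tcf3. In replicate 3 they were 1.88, 4.68 and 1.47 for Id1, Id2 and Id3, 1.15 for Tcf4, -0.52 for Tcf12 and -0.92 for Tcf3. Other probe sets were not followed in this way. Those of Id2 changed by 1.78 and 0.67 between the populations, less than the 1.86 of Tcf4. All members but Id2 were highest in replicate 1 and lowest in replicate 3, Tcf3, Id4 and Tcf12 included, and the endothelial marker median had the same order (11.63, 10.27 and 8.90). The span over these replicates was 3.29 for Id1, 2.97 for Id3 and 1.84 for Tcf4, against 1.31 for Id4, 0.78 for Tcf12 and 0.40 for Tcf3. Id2 was lowest in replicate 2. The part of the endothelial share in these differences was not tested.

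**Figure D3:**
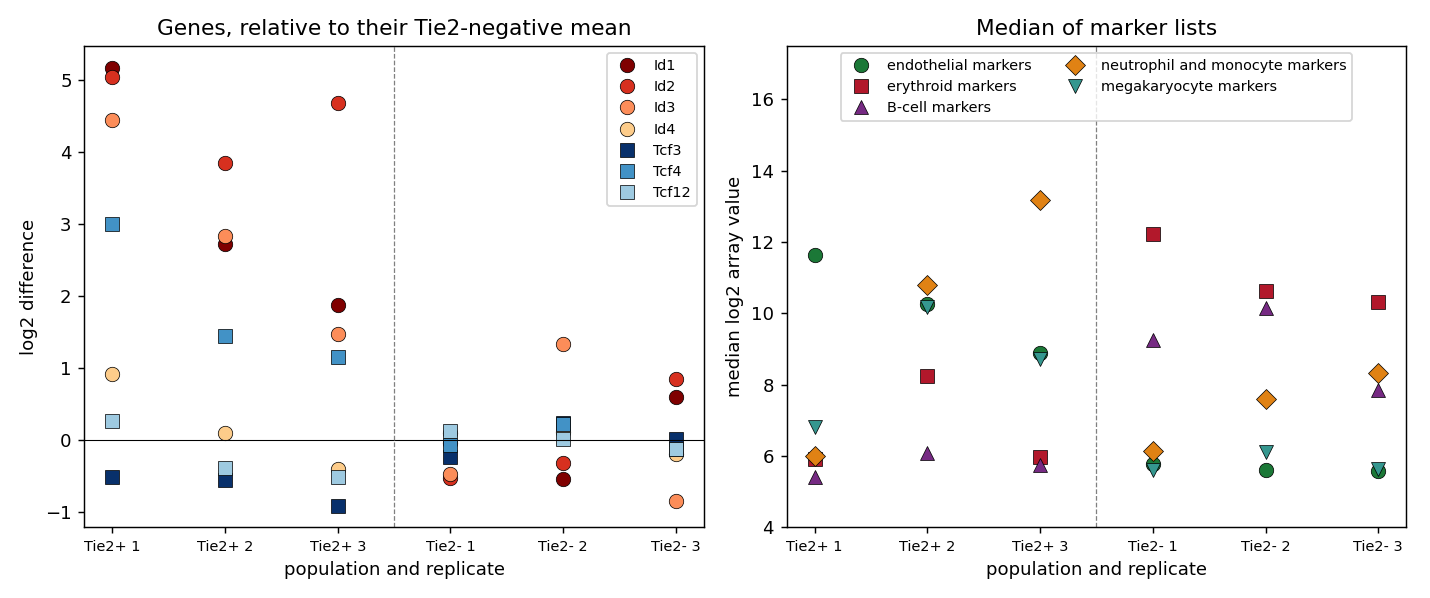
Left, log2 difference of each gene from its Tie2-negative mean on each array (circles Id genes, squares E proteins). Right, the median log2 array value of 5 marker lists on the same arrays, Tie2-positive arrays on the left of each panel. Over the Tie2-positive replicates, the endothelial median and every gene except Id2 are highest in replicate 1 and lowest in replicate 3.

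The log2 ratio of an Id gene to an E protein was then followed within each array, for all 12 pairs. It moved toward the Id gene most against Tcf3. The ratio of Id2 to Tcf3 was higher in the Tie2-positive than in the Tie2-negative arrays by 5.19 ± 0.58 (SE), that of Id1 to Tcf3 by 3.92 ± 0.98 (SE) and that of Id3 to Tcf3 by 3.58 ± 0.94 (SE). Against Tcf12 the shifts were 4.74 ± 0.57 for Id2, 3.48 ± 0.84 for Id1 and 3.14 ± 0.92 for Id3 (SE).

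Against Tcf4 the shifts were smaller. The ratio of Id2 to Tcf4 was -1.91, -1.56 and -0.44 in Tie2-positive replicates 1, 2 and 3, against -4.42, -4.49 and -2.98 in the Tie2-negative replicates, a shift of 2.66 ± 0.66 (SE) without overlap. That shift depends on the Id2 probe set. The others changed by 1.78 and 0.67, less than Tcf4 (1.86), and were not paired. The ratio of Id1 to Tcf4 shifted by 1.39 ± 0.60 and that of Id3 to Tcf4 by 1.05 ± 0.67 (SE), and in both the populations overlapped (exact two-sided permutation test, p = 0.2 each). Only the ratio of Id4 to Tcf4 was lower in every Tie2-positive array (-1.66 ± 0.24, SE), with the Id4 probe set whose change was near 0. Of the 12 pairs, 9 were higher and 1 lower without overlap. For these 10, p was 0.1 by the exact two-sided permutation test, which cannot go lower with 3 arrays a side, and 0.12 after adjustment over the 12 pairs. The ratios of different probe sets carry no meaning as levels, and the pairs share their genes. No share without overlap was computed for other pairs of genes, so the count has no background. Among single genes 39.1% did not overlap (15.2% higher, 23.9% lower).

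By Pearson's r over the 6 arrays, among 3843 other genes with a mean above the median and an SD of at least 0.5, the patterns most like Id2 were those of Phldb2, Slco3a1 and Pdlim4 (r = 0.999, 0.998 and 0.996). Those most like Id1 were Dram2, Agrn and Ccnd1 (r = 0.999, 0.998 and 0.998), and most like Id3 were Zfp945, Cd1d1 and Mvb12a (0.994, 0.993 and 0.993). Tcf4 was matched most closely by Mtmr9, Rhbdf1 and Avpi1 (r = 0.9996, 0.999 and 0.998) and Tcf3 by Sec14l2, Tnfaip2 and Pskh1 (r = 0.978, 0.967 and 0.965). For Id4 these genes were Efnb1, Prcp and Xaf1 (r = 0.990, 0.987 and 0.987), and for Tcf12 they were 2310022B05Rik, Mboat2 and Jmy (r = 0.987, 0.978 and 0.977). The 6 points fall into 2 populations, so r largely reads the difference between them and the order of the Tie2-positive arrays.

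Genes that act with, above or below the E proteins were read from 6 lists. Of 28 measured tissue-restricted helix-loop-helix partners, limma called 0, against 7.39% of all genes. At an unadjusted p under 0.05 limma gave 3, against 28.6% of all genes. Their median change was -0.12, against -0.11 for all genes. Tal1, the partner of E proteins in blood-forming and early endothelial cells, had values of 8.27, 9.98 and 8.97 in the Tie2-positive against 11.55, 10.73 and 10.64 in the Tie2-negative replicates. Its change of -1.90 ± 0.47 (SE) did not pass (limma adjusted p = 0.0593). Lyl1, the closest relative of Tal1, changed by -0.14 ± 0.31 (SE; limma adjusted p = 0.789). Twist1 and Twist2, mesenchymal partners, gave -0.08 ± 0.10 and 0.17 ± 0.27 (SE).

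Of 16 cofactors of E protein complexes, 2 rose and 0 fell, against 4.86% of all genes higher and 2.53% lower, with a median of -0.21. Ldb2, a LIM-domain binding adaptor, rose by 3.51 ± 0.60 (SE; limma adjusted p = 0.0238), with values of 11.03, 9.62 and 8.43 in the Tie2-positive against 6.05, 6.23 and 6.29 in the Tie2-negative replicates. Gata2, a zinc-finger factor of blood progenitors, mast cells and endothelium, rose by 2.68 ± 0.60 (SE; limma adjusted p = 0.0453), with 9.62, 11.68 and 11.68 in the Tie2-positive against 7.90, 8.21 and 8.85 in the Tie2-negative replicates. Unlike Ldb2, Gata2 was lowest in Tie2-positive replicate 1. Lmo2, which bridges Tal1 and GATA factors, changed by -0.50 ± 0.32 (SE) and did not pass. The count was 1 without Tie2-positive replicate 3, and 0 when Tie2-negative replicate 3 or Tie2-positive replicate 2 was left out.

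Of 11 measured helix-loop-helix genes listed as other repressors (Hes, Hey and Bhlhe families, with Sim1), limma called 0, against 7.39% of all genes. At an unadjusted p under 0.05 limma gave 4, against 28.6% of all genes, and the median change was 0.04. These 4, named after their values were seen, were Bhlhe40, Hey1, Hey2 and Hes7. Bhlhe40 changed by 2.02 ± 0.53 (SE; limma adjusted p = 0.0677) and Hey1 by 1.23 ± 0.30 (SE; limma adjusted p = 0.0586). Hey2 changed by 0.62 ± 0.23 and Hes7 by -0.46 ± 0.16 (SE). Hes1 and Hes6 had the highest means and were not among these. Hes1, a Notch target, changed by 1.17 ± 0.55 (SE; limma adjusted p = 0.214) and Hes6 by 0.25 ± 0.32 (SE; limma adjusted p = 0.627).

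The list of BMP and TGF-beta ligands, receptors, Smads and antagonists holds known inducers of Id genes. Of its 29 genes 6 rose and 0 fell, against 4.86% of all genes higher and 2.53% lower, and the median change was 0.59. Acvr1, a BMP type I receptor, rose by 4.54 ± 0.50 (SE; limma adjusted p = 0.0104). Its values were 10.02, 8.27 and 8.11 in the Tie2-positive against 4.28, 3.99 and 4.51 in the Tie2-negative replicates. The Tie2-negative values lay under the 25th percentile of all probe sets (4.55). Smad1, a signal transducer of BMP receptors, rose by 3.57 ± 0.58 (SE; limma adjusted p = 0.0204), and Bambi, a pseudoreceptor that dampens the pathway, by 3.25 ± 0.67 (SE; limma adjusted p = 0.0377). The other risers, named after their values were seen, were the receptors Tgfbr2 (2.65) and Bmpr2 (2.07) and the inhibitory Smad6 (2.01). The count was 10 without Tie2-positive replicate 1, 2 without Tie2-positive replicate 2 and 2 without Tie2-negative replicate 3.

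Of 17 measured B-lineage genes known as targets of E proteins, 8 fell and 0 rose, with a median change of -2.45. Of all genes, 2.53% fell and 4.86% rose. Rag1, the recombinase of antigen receptor genes, had 3.23, 3.57 and 3.32 in the Tie2-positive against 9.74, 10.15 and 7.67 in the Tie2-negative replicates and fell by 5.81 ± 0.61 (SE; limma adjusted p = 0.0104) on the log2 scale. Pou2af1, a B-cell coactivator, fell by 5.74 ± 0.65 (SE), and Vpreb1, of the surrogate light chain, fell by 4.95 ± 0.79 (SE). Pax5 (-0.43 ± 0.21, SE) and Foxo1 (-0.15 ± 0.59, SE) did not pass. The list shares 9 genes with the B-cell markers, 52.9% of the targets and 81.8% of the markers, so fewer B-lineage cells and lower expression in them cannot be told apart. The count was 4 without Tie2-positive replicate 2.

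Of 16 cell cycle and angiogenesis genes known to respond to E proteins or Id proteins, 1 fell and 0 rose, with a median of -0.11. The shares of all genes were 2.53% lower and 4.86% higher. At an unadjusted p under 0.05 limma gave 9 of the 16, against 28.6% of all genes. Without overlap 6 were higher and 4 lower, against 15.2% and 23.9% of all genes. Ccne1, the cyclin E1 gene, fell by 2.95 ± 0.62 (SE; limma adjusted p = 0.0401) on the log2 scale but missed the threshold when Tie2-negative replicate 3 or Tie2-positive replicate 2 was left out. Thbs1, the thrombospondin gene that Id1 represses in mice, changed by 0.55 ± 0.14 (SE), and Cdkn1a, the p21 gene that E proteins activate, by 0.64 ± 0.32 (SE). Neither passed.

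**Figure D4:**
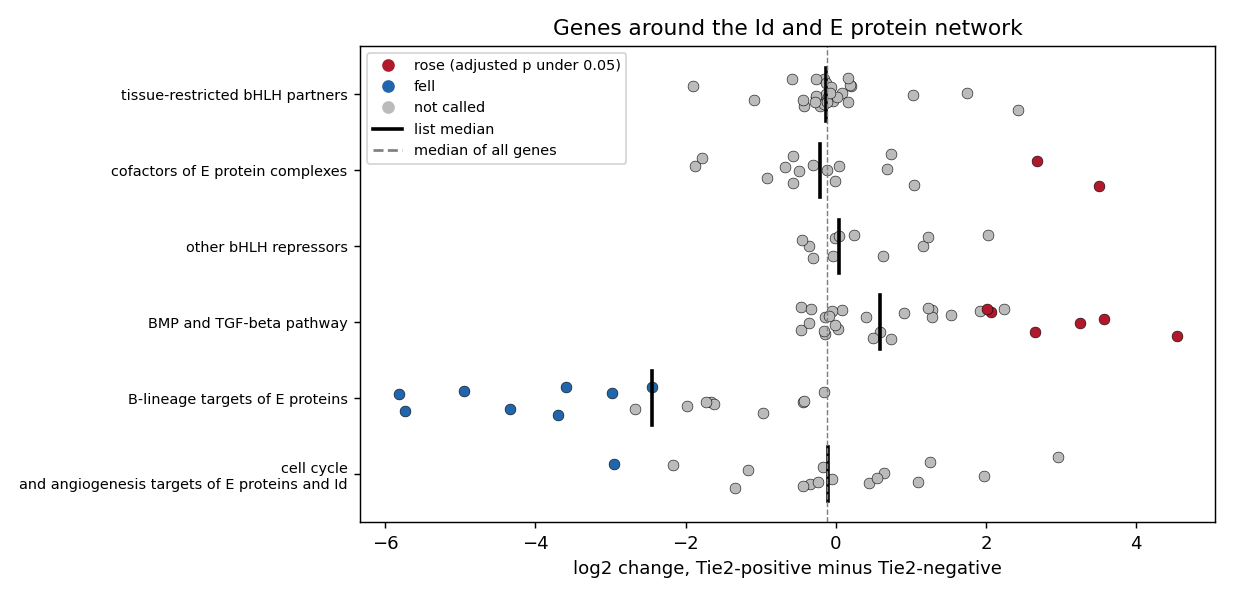
Log2 change (Tie2-positive minus Tie2-negative) of each measured gene in 6 lists, red where it rose, blue where it fell and grey where it was not called; thick lines are list medians and the dashed line is the median of all genes (-0.11). The B-lineage genes lie at -0.15 and below, and the BMP and TGF-beta pathway reaches 4.54.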

How the data were processed

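Per the labels' protocols, RNA was amplified repeatedly, hybridised to Affymetrix mouse arrays and scanned with GCOS 1.1.1. The deposited values, 1 for each probe set on each array, are on a log2 scale (2.56 to 14.78). That the scale is log2 was read from this range, and for the authors' summary and normalization no method is named in those sources. Of 45101 probe sets, 64 controls were left out after quantile normalization, and 34945 carried 1 gene symbol (0 changed against RefSeq). The 75th percentiles of the arrays differed by 0.26, along with the populations, and the normalization removed that difference.

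The 2 populations were compared in R 4.3.3 with limma 3.58.1 (lmFit on all 6 arrays without covariates, then trended eBayes, two-sided, Benjamini-Hochberg over 18193 genes). Ratios within arrays had an exact permutation test. The procedure was run on simulated data with independent noise for each gene and array. Such data lack the differences that many genes share among the Tie2-positive arrays, so the run says nothing about their effect. Arrays have no read depth, and their number limits the precision.

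The members and the 13 lists (193 of 210 entries measured) were chosen with earlier results of these data known. Named list genes were up to 3 called genes with the largest change in each direction, or the 2 with the highest mean where a list had none. Twist1, Twist2, Lmo2, Pax5, Foxo1, Thbs1, Cdkn1a, Vwf, Bst2, Siglech and Ccr9 were named after their values were seen. Alternatives were the replicate block, other scalings, a filter, other probe set rules, other variance models, array weights and leaving out arrays. The fit without both Tie2-positive replicate 2 and replicate 3 was chosen after seeing the data.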

Additional observations from a re-analysis of the deposited data

How the results depend on the processing

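The number of Id genes called by limma was 1 as reported. It was 0 with the replicate block, 2 with the probe sets of a gene averaged, 3 with array weights and 3 with only replicate 1 left of the Tie2-positive arrays (its spread is then taken to equal that of the Tie2-negative arrays). Leaving out 1 array gave 0 to 3. The number of E protein genes called was 0 as reported (2 at an unadjusted p under 0.05), 2 with array weights, 1 with only Tie2-positive replicate 1 left, and 0 to 1 when leaving out 1 array. In the first of these E protein settings Tcf4 (1.42) and Tcf3 (-0.68) passed. Leaving out 1 array gave changes of -0.15 to 0.50 for Id4, the lowest, reversed one without Tie2-positive replicate 1 and the highest without Tie2-positive replicate 3. With only Tie2-positive replicate 1 left, the change of Tcf12 reversed to 0.25, and Id1 (5.17), Id3 (4.44) and Tcf4 (2.99) passed beside Id2, as did 13 genes of the BMP and TGF-beta list in place of 6 and 4 repressors in place of 0. With array weights 14 B-lineage genes fell in place of 8, and 7 neutrophil and 6 megakaryocyte markers rose in place of 0 and 2. These weights were 0.25, 5.83 and 0.84 for Tie2-positive replicates 1, 2 and 3. They were 0.55, 1.49 and 1.01 for the Tie2-negative replicates. All results with array weights therefore rest mostly on replicate 2 for the Tie2-positive population. The cause was not tested.

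The labels number the replicates 1 to 3 in both populations. Deviations of same-numbered arrays from their population means correlated at 0.14, 0.01 and 0.19. Tie2-positive replicates 1 and 3 correlated best with the Tie2-negative array of their own number and replicate 2 did not. Whether same numbers mark a shared litter is not settled by this or by the labels, and the numbers were not used as pairs. With the replicate block limma called 0 of 18193 genes (smallest adjusted p 0.0521; 5080 at an unadjusted p under 0.05), and the change of Id2 was 4.52 (adjusted p = 0.0521). Over all genes, 884 rose and 461 fell as reported, against 2177 and 2462 with array weights, 1496 and 652 without Tie2-positive replicate 1, 375 and 129 without Tie2-positive replicate 2, 860 and 225 without Tie2-positive replicate 3, and 251 and 127 without Tie2-negative replicate 3. With values as deposited or centred on array medians, the directions of the 7 genes stayed as reported and 1 Id gene was called. The change of Tcf3 was then -0.54 (limma unadjusted p = 0.0514) and -0.50 (limma unadjusted p = 0.0675). As reported its unadjusted p was under 0.05. All 6 list counts were 0 in the block and without Tie2-negative replicate 1 or 2.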
